A study of Mus musculus with 16 samples.

Results

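Of 11564302 autosomal positions listed in at least 1 of 11 knock-in libraries, 3059666 (26.5%) had no other listed position within 100 bases. These isolated positions were chosen from the deposited coordinates alone. The listed positions of the 3 heterozygous libraries and of the 8 libraries of days 0, 2, 4 and 8 were pooled, and a position entered the set where its nearest pooled neighbour lay more than 100 bases away. The other 8504636 positions had a neighbour at that distance or closer. Spacing and the pooled listing therefore chose the members, and every value that follows from them is given as a description without a test.

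DNMT1 is the maintenance methyltransferase: after replication it copies methylation onto the new strand at CpG sites, where both strands carry the same dinucleotide. CpGs are unevenly spaced in mammalian genomes. They are crowded in CpG islands, many of which lie at gene starts and are kept free of methylation, and sparse through most of the remaining genome. Purified DNMT1 is processive and can methylate successive sites along 1 DNA molecule.

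The study labelled DNMT1 targets in E14TG2a mouse embryonic stem cells grown on gelatin with leukaemia inhibitory factor. Knock-in cells carried 1 Dnmt1 allele with the N1580A substitution and 1 wild-type allele, and wild-type Dnmt1 cells served as controls. All cells, controls included, were electroporated with 1 mM Ado-6-azide, a cofactor analog, and DNA was taken 3 h later. Azide-bearing DNA was captured and sequenced from the point of attachment, so that a listed position is read as a labelled CpG. It can also be background, since the wild-type libraries listed positions too.

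The 16 libraries fell into 7 groups. Het, the heterozygous knock-in, had 3 libraries, as had WT, the wild type. There were 2 libraries each of day 0, day 2, day 4, day 8 and a wild-type control. Day 0 cells were naive and grew with the kinase inhibitors CHIR99021 and PD0325901, and the later days followed their withdrawal with leukaemia inhibitory factor kept. The labels do not give the culture state of the Het libraries, what set the wild-type control apart from WT, the number of knock-in clones, or whether replicates were separate cultures. The permutation p-values therefore reflect no more than the spread between these libraries, which may be technical. The gene tests reach no further, and their fitted common term for that spread added almost nothing to counting error, as given below. The autosomal depth was 4134592 to 24774977 reads in the 11 knock-in libraries and 1609 to 22608 reads in the 5 wild-type libraries. Listed positions numbered 383292 to 3362003 and 945 to 9027.

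The surroundings of a member are shown first, because an isolated listed position can lie either where the genome has no other CpG or among CpGs that no library listed. The first 4 runs are members in RefSeq promoter windows (GRCm38.p6, the assembly of mm10) that were listed in the most libraries. The last pair stand among 22 CpGs each and were picked after their values were seen. Each run extends up to 100 bases to either side of the member, ends at the edge of the reference window or at the gene start, and is read 5′ to 3′ on the gene's strand. Capitals mark every CpG. The C of the member is preceded by 100 bases in the Gm41331, Gm52539, Gm51701, 1700065D16Rik and Lrrc8d runs and by 19 in the Astl run.

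Gm41331: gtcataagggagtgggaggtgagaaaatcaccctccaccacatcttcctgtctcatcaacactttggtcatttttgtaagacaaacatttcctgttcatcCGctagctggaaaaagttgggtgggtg

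Gm52539: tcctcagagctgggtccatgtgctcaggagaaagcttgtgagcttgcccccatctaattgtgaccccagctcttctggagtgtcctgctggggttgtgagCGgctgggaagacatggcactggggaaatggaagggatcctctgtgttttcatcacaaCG

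Astl: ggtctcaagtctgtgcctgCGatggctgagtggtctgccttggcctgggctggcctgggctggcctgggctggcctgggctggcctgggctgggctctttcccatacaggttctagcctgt

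Gm51701: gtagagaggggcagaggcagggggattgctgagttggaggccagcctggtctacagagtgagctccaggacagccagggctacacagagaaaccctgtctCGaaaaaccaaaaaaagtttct

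1700065D16Rik: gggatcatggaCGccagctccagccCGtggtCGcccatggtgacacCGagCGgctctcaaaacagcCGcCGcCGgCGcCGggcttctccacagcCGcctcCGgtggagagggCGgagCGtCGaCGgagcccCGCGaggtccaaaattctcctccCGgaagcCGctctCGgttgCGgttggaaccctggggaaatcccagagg

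Lrrc8d: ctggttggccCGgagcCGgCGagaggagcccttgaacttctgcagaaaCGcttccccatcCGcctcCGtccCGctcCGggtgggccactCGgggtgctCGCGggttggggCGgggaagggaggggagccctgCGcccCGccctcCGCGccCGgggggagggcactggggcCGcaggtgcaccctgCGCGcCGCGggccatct

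The Gm41331 run lies at chr15:60141699-60141825 on the plus strand, upstream of an lncRNA gene. Its member was listed in all 11 knock-in libraries, with 22, 43 and 53 reads in Het, 8 and 5 on day 0, 9 and 6 on day 2, 32 and 33 on day 4 and 9 and 14 on day 8. No wild-type library listed it. The capitals show that it is the only CpG of its run. The Gm52539 run (chr2:173371064-173371223, minus strand) also precedes an lncRNA gene, and its member was listed in 8 libraries. Astl encodes an oocyte protease of the astacin family. Its member (chr2:127338389-127338509, plus strand) was listed in 7 libraries, as was that of the lncRNA Gm51701 (chr9:123925026-123925147, plus strand). These runs hold 1 or 2 CpGs each. The runs before the protein-coding genes 1700065D16Rik (chr9:95857561-95857762, minus strand) and Lrrc8d (chr5:105700584-105700785, plus strand), a subunit of volume-regulated anion channels, hold 22 CpGs. In each of them the member was listed in 1 library only, with 18 reads in Het replicate 1 and 16 reads in day 0 replicate 1. None of the surrounding CpGs was listed in any knock-in library.

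The same contrast was counted over all promoter windows, each of 250 bases before and 50 bases after a gene start. The 31396 autosomal windows held 45229 pooled positions, and 100% of them lay on the plus-strand C of a CpG. Whole flanks of 100 bases were available for 122814 reference CpGs, of which 11.9% were listed and 2656 were members. No other reference CpG lay within 100 bases of 1020 of these members (38.4%). Between 1 and 4 lay near 973, and 5 or more near 663 (24.96%). Those 663 members were surrounded by 8216 CpGs that no knock-in library listed. The median number of reference CpGs within 100 bases was 1 around members, 4 around other listed CpGs and 18 around unlisted CpGs. The rule sets part of the difference between members and other listed CpGs. A listed CpG without a reference neighbour is always a member, so the others have at least 1. Members with at most 4 reference neighbours outnumbered those with 5 or more. Outside the promoter windows the reference CpGs were not used here.

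Reference spacing was not used to choose members, though it limits which listed CpGs can be members. It also tracked whether a promoter CpG was listed at all, which the rule does not set. Of 1783 promoter CpGs with no other CpG within 100 bases, 57.2% were listed in at least 1 knock-in library. The share was 58.4% with 1 neighbour, 56.1% with 2 to 4, 26.2% with 5 to 9, 3.32% with 10 to 19 and 0.508% (240 of 47198) with 20 or more. The decline started only beyond 4 neighbours. Members made up 30.2% of the listed CpGs with 1 neighbour, 6.94% with 2 to 4 and 6.53% with 5 to 9, then 20.9% with 10 to 19 and 37.9% with 20 or more. In CpG-dense promoters few sites were listed, and 91 of the 240 listed in the densest class were isolated.

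Each knock-in library listed sparse promoter CpGs more often than dense ones. Among CpGs without a reference neighbour, 1.74% and 1.79% were listed on day 0, 5.55% and 7.07% on day 2, 9.31% and 10.99% on day 4, and 13.9% and 13.7% on day 8. The Het libraries listed 8.81%, 16.4% and 12.1%. Among CpGs with 20 or more neighbours the share was 0.0169% to 0.121% in the 11 libraries. The ratio of the sparse to the dense share was 20.5 and 49.8 on day 0 and lay between 136 and 417 in the other 9 libraries, so the day 0 libraries were the lowest of the 11. This ratio rests on few dense CpGs in each library and was not tested. WT replicate 3 listed 1 of the 1783 sparse CpGs (0.0561%), and the other wild-type libraries listed 0, which allows a share of up to 0.168% in each. In the densest class the wild-type libraries listed 0 to 24 CpGs. The 24 of WT control replicate 1 (0.0508%) equalled or passed the count in 5 knock-in libraries, among them day 2 (11 and 8 CpGs) and day 4 replicate 2 (24), so the dense shares under these ratios were partly at the level of a wild-type library.

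**Figure D1:**
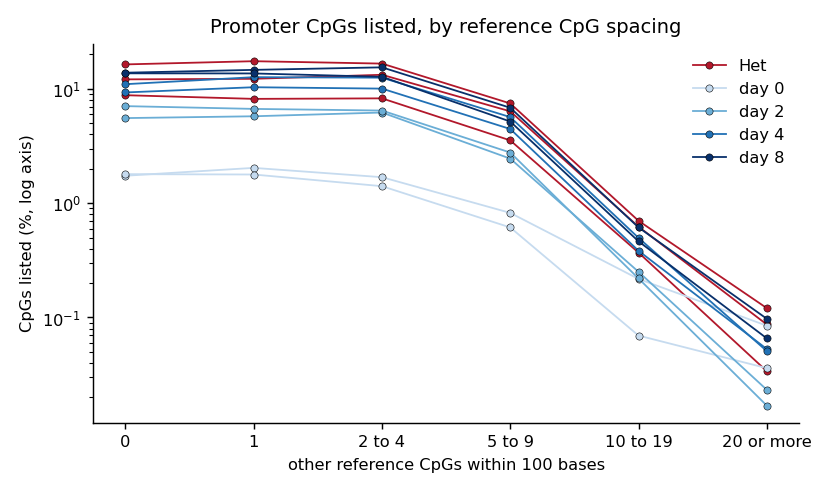
Share of promoter CpGs listed in each of the 11 knock-in libraries (percent, log axis) against the number of other reference CpGs within 100 bases. Lines join the values of 1 library; the shares are level up to 4 neighbours and fall beyond it in every library, from 1.74% to 16.4% at 0 neighbours down to 0.0169% to 0.121% at 20 or more.

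Spacing among the pooled positions ran smoothly across the limit of 100 bases. The nearest listed neighbour lay at a median of 184 bases from a member, with a 75th percentile of 293 bases, and at a median of 26 bases from the other positions. Of the members, 46.6% had their nearest neighbour beyond 110 and up to 200 bases away, 35.8% beyond 200 and up to 500, and 7.41% beyond 500 and up to 1000. Another 43444 were beyond 1000 and up to 5000 bases from it, and 596 beyond 5000. Just inside the limit, the 270196 members with a neighbour at up to 110 bases were listed in a mean of 1.74 libraries, with 6.62 reads per listing and 47.7% in protein-coding gene bodies. Just outside it, the 307352 positions beyond 90 and up to 100 bases had 1.75 libraries, 6.64 reads and 48.6%. The distance of 100 bases marks no break in these values.

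**Figure D2:**
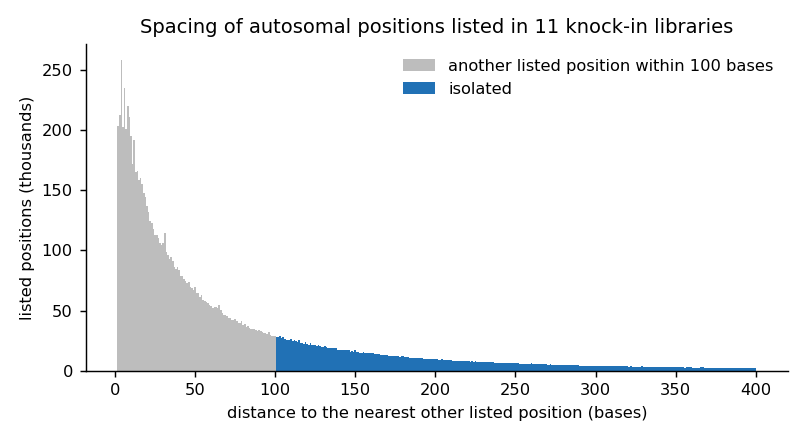
Number of pooled positions by distance to the nearest other listed position in bases, up to 400 bases, with isolated positions in blue and the others in grey. Counts decline without a step at 100 bases; the median distance is 184 bases for members and 26 bases for the others.

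Members took a similar part of every knock-in library. Their share of listed positions was 24.5%, 24.4% and 23.4% in the Het libraries. It was 22.0% and 22.1% on day 0, 23.8% and 23.8% on day 2, 24.3% and 24.1% on day 4, and 24.0% and 25.4% on day 8. The day 0 libraries were below all the others and day 8 replicate 2 was above them. Exact (Clopper-Pearson) 95% intervals were at most 0.263 percentage points wide, and these cover counting error only. Because every one of the 11 libraries helped to set the spacing, and day 0 added the fewest positions, these shares describe the set and do not compare the days.

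The number of members listed was lowest on day 0, which listed the fewest positions, and highest in Het replicate 2, which listed the most. It was 84350 and 88440 on day 0, 296639 and 305577 on day 2, 500095 and 609418 on day 4, 724090 and 648707 on day 8, and 395050, 821260 and 607582 in Het. Members carried nearly the same number of reads as other positions of the same library. The mean on day 0 was 10.8 and 12.1 reads per member against 10.8 and 11.96 per other position. On day 8 it was 4.02 and 4.00 against 4.15 and 4.07, and in Het it was 11.6, 7.18 and 8.16 against 11.7, 7.43 and 8.32. The median was equal for both kinds in all 11 libraries. Members seen as 1 read were 8.22% to 19.9% of a library's members.

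Wild-type libraries listed few positions, and a smaller part of them were members. The share was 14.1%, 14.2% and 14.8% in WT and 13.3% and 13.8% in the wild-type controls, with 95% intervals up to 4.55 percentage points wide. This share is lowered by positions that no knock-in library listed, since only 65.2% to 69.2% of wild-type positions were in the pool. Of those in the pool, 19.9% to 21.7% were members. In all, 3143 members (0.103%) were also listed in a wild-type library, against 12123 of the other positions (0.143%).

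Isolation was then set by libraries that the comparison did not use. For the day libraries, a position was called isolated where no other position of the 3 Het libraries lay within 100 bases. This set is wider than the members, since it also takes positions whose near neighbours were listed in day libraries alone. It held 151712 positions of day 0 replicate 1 and 1247469 of day 8 replicate 1, against 84350 and 724090 members. The isolated share of listed positions was 39.6% and 39.9% on day 0, 41.4% and 41.4% on day 2, 41.8% and 41.5% on day 4, and 41.4% and 42.9% on day 8. Both day 0 libraries were below the 6 later ones, and the later days overlapped. Across the 8 libraries the share rose with the day (Pearson r = 0.80, two-sided exact permutation p = 0.0190, adjusted p = 0.0381 over 4 relations; Spearman rho = 0.78, exact permutation p = 0.0349, adjusted p = 0.0698). Without day 0 the correlation was 0.58 (exact permutation adjusted p = 0.400), so the trend rests on the day 0 libraries. Without day 8, the day farthest from the median day, it was 0.91 (exact permutation p = 0.0222, the smallest that these 6 libraries allow; adjusted p = 0.0889). The adjusted p was above 0.05 without any 1 of the day libraries except day 8 replicate 1, and reached 0.165 without day 8 replicate 2.

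The isolated share of reads ran from 39.5% and 40.1% on day 0 to 40.7% and 42.5% on day 8 (r = 0.68, exact permutation p = 0.0603, adjusted p = 0.0804; rho = 0.59, exact permutation adjusted p = 0.204). It did not pass, though it did without day 8 replicate 1 (r = 0.91, exact permutation adjusted p = 0.0127). The log2 ratio of mean reads at isolated to other positions was small throughout, from 0.01 in day 0 replicate 2 to -0.04 in day 8 replicate 1. It fell with the day (r = -0.83, exact permutation p = 0.0107, adjusted p = 0.0381; rho = -0.88, exact permutation adjusted p = 0.0413). Without day 0 its adjusted p was 0.400 (r = -0.72), and thinned to equal reads it was 0.0667 (r = -0.75, exact permutation). Over the 8 libraries the mean log2 ratio was -0.02 ± 0.02 (SD, n = 8), below 0 in 7 of 8 (two-sided exact sign-flip permutation p = 0.0234, adjusted p = 0.0234). With an isolation distance of 50 bases it was -0.0035 (exact permutation adjusted p = 0.625). Read depth per position moved with the day, from 10.8 to 12.05 reads per isolated position on day 0 to 4.01 to 4.05 on day 8, and its part in these trends beyond the thinning was not tested.

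**Figure D3:**
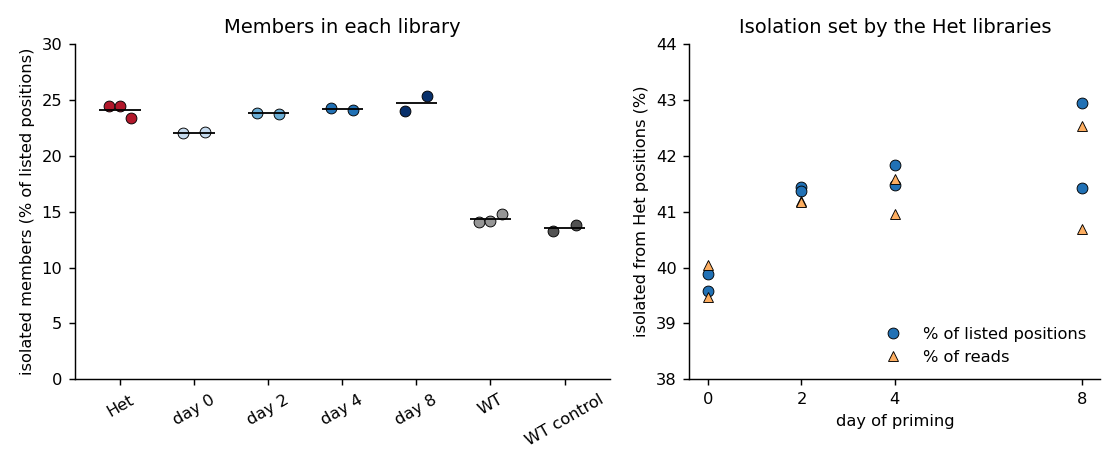
Left, members as a percentage of listed positions in all 16 libraries by group, 1 point per library and a line at the group mean; the knock-in libraries lie between 22.0% and 25.4% and the wild-type libraries between 13.3% and 14.8%. Right, with isolation set by the Het libraries, the isolated share of positions (circles) and of reads (triangles) in the 8 day libraries against the day; the axis starts at 38%, and both day 0 libraries lie below the later ones.

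Knock-in and wild-type libraries were compared in the same way. With isolation set by the day libraries, the isolated share was 30.9% ± 0.640 (SD, n = 3) in Het and 34.1% ± 0.930 (SD, n = 3) in WT. Every Het library was below every WT library (two-sided exact permutation p = 0.1, the smallest that 3 against 3 libraries allow). With at least 2 reads per position the shares were 34.5% and 35.5%, the difference narrowed from -3.26 to -1.06 points, and the groups overlapped (exact permutation p = 0.2). With isolation set by Het, it was 39.7% ± 0.211 (SD, n = 2) on day 0 and 44.3% ± 1.33 (SD, n = 2) in the wild-type controls (exact permutation p = 0.333, the smallest possible here). The location of wild-type positions near gene ends depended on how the positions were divided. With these outside libraries, within 1 kb of a protein-coding gene end lay 13.3% to 14.6% of them in WT and 14.3% and 16.9% in the controls, against 4.48% to 6.14% and 5.42% to 6.44% of the positions that were not isolated. In Het and day 0 libraries the isolated positions were below the others in this respect, at 2.81% to 3.31% against 3.57% to 4.33%. By the rule of the 11 pooled libraries the wild-type order was the opposite, with 2.99% to 4.34% of their members near a gene end against 8.52% to 11.97% of their other positions. That division is of another kind. A wild-type position that no knock-in library listed counts there among the others, even where it is isolated. The part of this in the opposite order was not tested. These location values were not tested between genotypes.

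Members recurred less than other positions. Listing in exactly 1 library was seen for 55.8% of members and 46.3% of the others. The positions seen in 1 library alone made up 26.8% to 36.0% of each library's members and 19.3% to 26.9% of its other positions. A tested value came from isolation set by Het, which did not use the day libraries. Of the isolated positions of a day library, 4.24% to 19.2% were also listed in the other library of that day, against 5.47% to 23.8% of the others. The difference was -2.58 ± 1.20 percentage points (SD, n = 8), below 0 in 8 of 8 libraries (two-sided exact sign-flip permutation p = 0.00781, the smallest possible; adjusted p = 0.0104). Both libraries of a day share the same overlap, so they are not independent in this test.

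At the other end, 270 members were listed in 8 or more of the 11 libraries and 28 in all 11. Of those 28, 12 lay in gene bodies, and 6 of the 12 were in Sfi1, which encodes a centrin-binding protein of the centrosome (chr11:3131850-3203347). At chr11:3197941-3197942 the Sfi1 member had 20, 33 and 63 reads in Het, 11 and 22 on day 0, 53 and 28 on day 2, 58 and 50 on day 4, and 22 and 50 on day 8. The member with the highest geometric mean of reads over the 11 libraries lay outside genes at chr15:75085812-75085813, with 222, 335 and 324 reads in Het and 183 to 231 in the 8 day libraries. Other members reached more reads in single libraries, up to 647 in day 0 replicate 1 and 248 in day 0 replicate 2. The levels at this position were far above the library means, and in the day libraries they did not follow the decline of those means. A second member nearby, at chr15:75086378-75086379, ranged from 28 reads in day 0 replicate 1 to 290 in Het replicate 2. Chl1, a neural cell adhesion gene, held a member with 25 to 71 reads (chr6:103649287-103649288). None of these was listed in a wild-type library. Collapsed copies of a repeat can draw reads to 1 place, and the number of copies was not used here.

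Of the 5 members farthest from any other listed position, among the 7334 listed in 6 or more libraries, 4 had at most 12 reads in any library. The most distant was at chr8:21143147-21143148, 7700 bases from its neighbour, with 0 to 6 reads per library. An exception was chr8:21110000-21110001, at 3483 bases from its neighbour and 13950 bases from the defensin gene Defa38, which was listed in all 11 libraries with 8 to 24 reads. A member inside the zinc finger gene Zfp978 (chr4:147382941-147382942) stood 5879 bases from its neighbour. It was listed in 7 libraries, with 0 to 12 reads.

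Members lay outside genes more often than other positions did. Protein-coding gene bodies held 42.2% of members and 53.3% of the others, and lncRNA bodies 7.36% and 7.45%. Outside both kinds of body lay 50.4% of members and 39.2% of the others. The 1 kb around protein-coding gene ends held 2.82% and 4.16%. The coding share declined with distance to the nearest listed position, from 56.1% at 2 to 10 bases to 46.1% beyond 100 and up to 200, 39.6% up to 500, 29.4% up to 1000 and 21.8% beyond 1000. The mean number of libraries declined along the same bands, from 1.96 to 1.40. With isolation set by Het, the coding share was lower at isolated than at other positions in 8 of 8 day libraries, with differences from -10.3 to -7.69 points. The mean difference was -9.50 ± 1.05 percentage points (SD, n = 8; two-sided exact sign-flip permutation p = 0.00781, adjusted p = 0.0104). Near gene ends it was -1.08 ± 0.302 points, again in 8 of 8 (exact permutation p = 0.00781, adjusted p = 0.0104). Over the days the coding share of isolated positions stayed between 45.3% and 46.1% (r = 0.24, exact permutation adjusted p = 0.551).

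**Figure D4:**
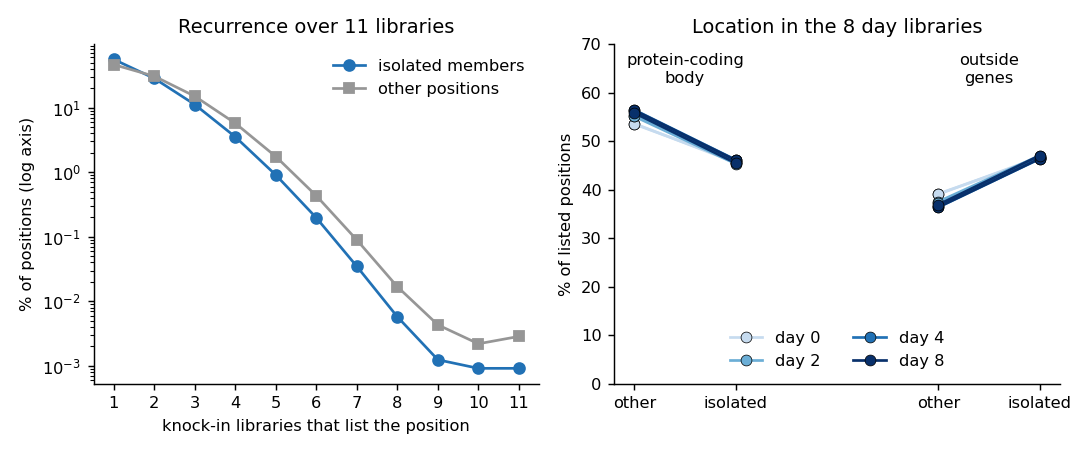
Left, percentage of isolated members (circles) and other positions (squares) listed in exactly 1 to 11 of the knock-in libraries, on a log axis; 55.8% of members and 46.3% of the others were in 1 library. Right, percentage of listed positions in protein-coding bodies and outside genes in each of the 8 day libraries, isolation set by Het; isolated positions are lower inside genes and higher outside in all 8.

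Along the chromosomes, the member share ran from 22.7% on chromosome 11 to 30.2% on chromosome 3. Over 2381 windows of 1 Mb it ran from 8.84% to 63.0%, with a median of 29.6%. In the 595 windows with the least protein-coding cover (up to 18.8%) the median was 46.0%. In 3 further groups of windows of like number, in order of cover, it was 30.8%, 24.1% and 22.8%. The number of members per window moved little across these 4 groups, with medians of 1172, 1331, 1352 and 1354. What differed was the number of all pooled positions, from a median of 2492 to 6146.5 per window. Across windows the member share correlated with the number of pooled positions at r = -0.94 and with coding cover at r = -0.52. Windows are not independent, and the first relation follows from the rule, since crowding removes members.

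Among 7197 protein-coding gene bodies with at least 200 pooled positions the member share ran from 1.63% to 63.6%, with a median of 18.9%. The highest shares were in Cdh7, a cadherin (63.6%, 136 of 214 positions), Nox4, an NADPH oxidase (62.3%), Cntnap5b (62.2%), Spock3 (61.5%), Dok6 (60.3%), Cntnap5a (60.2%), Ccdc85a (59.8%) and Dpp10 (59.3%). Cntnap5a and Cntnap5b encode neuronal contactin-associated proteins and Dpp10 a potassium channel partner. These genes held 1.31 to 2.03 pooled positions per kb. The lowest shares were in Abca2, a lipid transporter (1.63%, 6 of 367), Lamb2, a laminin chain (1.68%), the mitochondrial RNA polymerase Polrmt (1.83%), the Notch ligand Jag2 (2.42%), fatty acid synthase Fasn (2.69%), Nphp4 (2.74%), the kinase Jak3 (2.82%) and the cadherin Celsr2 (2.99%), with 15.0 to 22.3 positions per kb.

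By gene family, against a median share of 18.5% over 14369 protein-coding genes with at least 50 pooled positions, the vomeronasal receptors were high. Their median was 50.7% and 44 of 44 lay above the all-gene median, led by Vmn2r99 at 78.8%. Of the 36 long adhesion genes 34 lay above it, with a median of 45.9% and extremes in Cntnap5b at 62.2% and Csmd2 at 16.9%. Olfactory receptors had a median of 30.6% over 14 genes, from 5.38% in Olfr286 to 65.3% in Olfr1280. Zinc finger genes had 22.2% over 298, from 0% in Zfp768 to 73.1% in Zfp944. Hox genes had 12.5% over 11, with 0 members among the 53 positions of Hoxa6, and Hoxc6 the highest at 25.6%. Ribosomal protein genes had 17.3% over 3 genes and the naive pluripotency genes 15.1% over 12, from 6.98% in Klf5 to 33.3% in Zfp42. Among 15 genes for methylation enzymes and readers the median was 15.2%, with Dnmt1 itself the lowest at 6.06% (42 of 693 positions) and the dioxygenase gene Tet2 the highest at 30.8%.

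For changes over days, listed isolated positions were counted per gene body, with isolation set by Het, and tested by edgeR's quasi-likelihood test over the 8 day libraries. These isolated positions are the wider set and not the members alone. A gene was called at an adjusted p under 0.05. The fitted common biological coefficient of variation was 0.00988, so this term added almost no spread between libraries to counting error. On day 8 against day 0, 147 of 11181 tested genes (1.31%) were called, 86 higher (0.769%) and 61 lower (0.546%). On day 4 it was 106 (0.948%), 57 higher (0.51%) and 49 lower (0.438%). On day 2 it was 30 (0.268%), 25 higher (0.224%) and 5 lower (0.0447%). All 3 comparisons share the day 0 libraries. The near-even split on day 8 depended on the settings. Without TMM scaling it was 69 higher and 74 lower, with no filter 190 and 13, and at 200 bases 58 and 12. For the members of the full rule, as a description, 70 genes were past the threshold higher and 16 lower. Without any 1 of the 8 day libraries 3 to 32 genes were called lower, and without either day 2 library, which this comparison does not contrast, it was 163 and 22 or 152 and 22. With reads in place of positions the split was 54 higher and 0 lower (edgeR, 26158 genes tested, 4921 at an unadjusted p under 0.05). Without day 0 replicate 1 or replicate 2 the day 8 count was 33 or 35, and without day 8 replicate 2 it was 94. The genes called higher were long, with a median of 530 kb and a member share of 46.4%, and 46 of 86 exceeded 500 kb. The genes called lower had medians of 154 kb and 20.4%, and those not called 48.8 kb and 21.8%.

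The 8 genes with the most members spanned 1612 to 2271 kb each. Among them, Dlg2, a scaffold of the postsynaptic density (chr7:90476188-92449246), held 2413 members. It had 36 and 50 isolated positions listed on day 0, 295 and 295 on day 2, 495 and 612 on day 4, and 756 and 710 on day 8. Scaled to the isolated positions summed over the gene bodies of a library, these were 407 and 548 CPM on day 0. They were 1069 and 1165 CPM on day 8, with no overlap between the days. CPM stands for counts per 1000000 of that sum, after TMM scaling. The log2 change was 1.22 ± 0.14 (SE, edgeR adjusted p = 5.16e-11). Groups without overlap were common, in 27.9% of tested genes in the higher direction and 21.7% in the lower. Outside those 8, Kcnh7, a voltage-gated potassium channel subunit (chr2:62693410-63184287), had 6 and 5 positions on day 0 and 188 and 202 on day 8, a log2 change of 2.27 ± 0.33 (edgeR adjusted p = 5.22e-07). Csmd3, a giant transmembrane protein gene, rose from 18 and 18 to 336 and 347 (log2 1.37 ± 0.21, edgeR adjusted p = 2.71e-06).

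The other 7 genes with the most members were called on day 8 with 2 exceptions. The IgLON adhesion gene Lsamp (2835 members) rose by 0.86 ± 0.13, Nrxn3, a neurexin (2289), by 0.86 ± 0.14, Cntnap2 (2438) by 0.79 ± 0.14, the lipoprotein receptor Lrp1b (2200) by 0.78 ± 0.15 and the receptor phosphatase Ptprd (2407) by 0.67 ± 0.14. The log2 value was 0.13 ± 0.11 for Macrod2 (2737 members), an ADP-ribose hydrolase (edgeR adjusted p = 0.652). It was -0.14 ± 0.11 for Fhit (2161), a nucleotide hydrolase (edgeR adjusted p = 0.647). Day 2 values were already close to those of day 8, at 0.87 for Lsamp, 0.81 for Nrxn3 and 1.07 for Dlg2. The calls of Lrp1b and Ptprd were lost without day 0 replicate 1. Of 17 alternatives, the full rule among them, Lrp1b was past the threshold in 15 and Ptprd in 14.

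The named rises with few day 0 positions are best read as ratios. Ulk2, a kinase of autophagy, had 1 and 1 isolated positions on day 0 and 52 and 43 on day 8. As a share of isolated positions this was 6.30 times higher, with an exact 95% counting interval of 1.70 to 52.8. The ratio was 6.06 (2.03 to 29.7) for Prr16, 5.26 (1.76 to 25.9) for the stress granule protein gene G3bp2, 4.48 (1.71 to 16.7) for the lncRNA Gm29478 and 4.06 (1.70 to 12.7) for Enah, an actin regulator. The edgeR adjusted p was 0.0317 for Ulk2, 0.00393 for Prr16, 0.0169 for G3bp2, 0.0165 for Gm29478 and 0.0122 for Enah. At an isolation distance of 200 bases it was 0.110 for Ulk2, 0.145 for G3bp2 and 0.067 for Enah, while Prr16 and Gm29478 stayed called. At 50 bases only the call of G3bp2 was lost (edgeR adjusted p = 0.0977). Under the full rule, as a description, Ulk2 and Gm29478 were not past the threshold, and Prr16, G3bp2 and Enah were. Each of these 5 calls was lost without day 0 replicate 1 and without day 0 replicate 2. Of 16 alternatives, the full rule among them, Prr16 was past the threshold in 14, Enah and Gm29478 in 12 each, and Ulk2 and G3bp2 in 10 each.

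The largest falls were in shorter genes. Zfp982 (chr4:147443114-147516064), a zinc finger gene, had 15 and 15 isolated positions on day 0 and 42 and 33 on day 8, which is 170 and 165 CPM against 59.4 and 54.2. Its log2 change was -1.55 ± 0.32 (SE, edgeR adjusted p = 0.00179). Zfp936 fell by 1.56 ± 0.33 (edgeR adjusted p = 0.00205) and Ankmy2, an ankyrin repeat protein gene, by 1.62 ± 0.36 (edgeR adjusted p = 0.00610). Sfi1 fell by 1.43 ± 0.33 (edgeR adjusted p = 0.00875), Gm5087 by 1.48 ± 0.32 (edgeR adjusted p = 0.00190) and Melk, an embryonic kinase, by 1.39 ± 0.36 (edgeR adjusted p = 0.0315). A fall here means a smaller part of a growing total, since the number listed in each of these genes was higher on day 8 than on day 0. None of these falls was called with reads in place of positions or without day 0 replicate 1, and of the 6 only Gm5087 was called without day 0 replicate 2. At an isolation distance of 200 bases only Zfp936 was called, and the edgeR adjusted p of the other 5 was 0.132 to 0.356. Among members by the full rule, given as a description, the log2 values were -0.39 for Ankmy2, -0.78 for Melk, -0.81 for Gm5087, -0.96 for Zfp936, -1.03 for Zfp982 and -1.62 for Sfi1. Of the 6, only Sfi1 was past the threshold there. With no filter Sfi1 and Melk were not called, and with the 4 compared libraries alone Gm5087, Sfi1 and Melk were not. Without day 8 replicate 1 the calls of Zfp936 and Sfi1 were lost, and without day 8 replicate 2 those of Ankmy2 and Melk. Melk was also not called without either day 2 library.

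**Figure D5:**
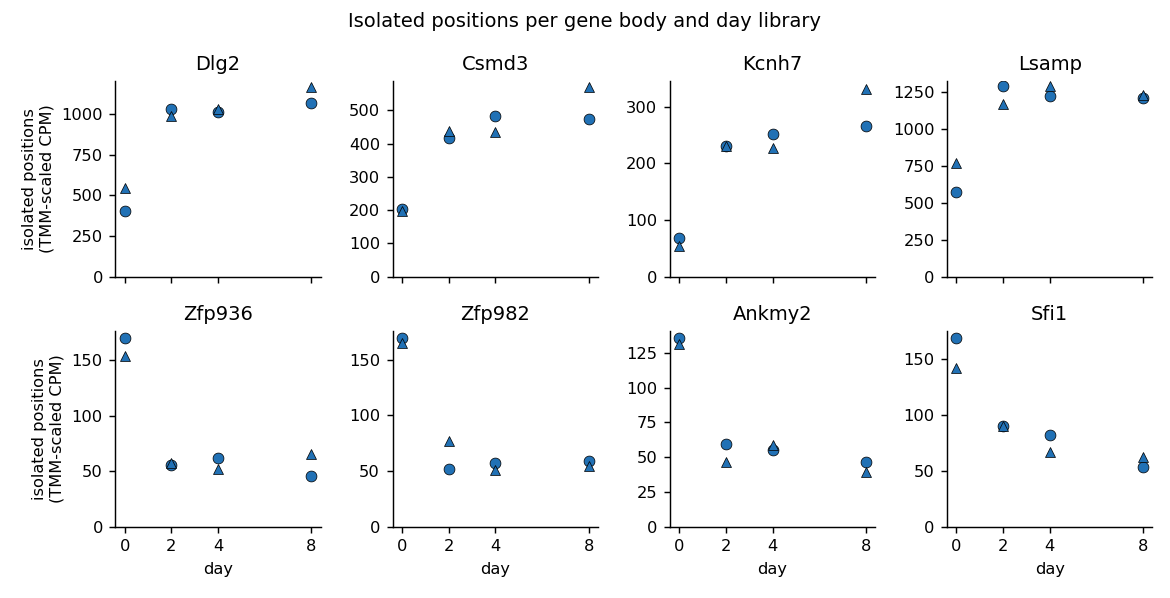
Isolated positions per gene body in the 8 day libraries, as CPM after TMM scaling, for 4 genes called higher on day 8 (top) and 4 called lower (bottom); circles are replicate 1 and triangles replicate 2. Dlg2 goes from 407 and 548 on day 0 to 1069 and 1165 on day 8, and Zfp982 from 170 and 165 to 59.4 and 54.2.

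Of the gene lists, the 36 long adhesion genes had 15 called higher and 3 lower on day 8, with a median log2 change of 0.53 beside 0.04 over all genes tested. That is 41.7% higher and 8.33% lower, against 0.769% and 0.546% of all tested genes. Length went with the calls: of 221 tested genes over 500 kb, 46 were called higher (20.8%) and 11 lower (4.98%). Of the 33 list members over 500 kb, 15 were higher, against 31 of the other 188 genes of that length (16.5%). The lists were chosen with earlier results of these data known, so these shares are a description and not independent evidence. Besides those named, Cadm2 rose by 1.11, Dpp10 by 1.05, Lrrc4c by 0.98, Pcdh9 by 0.92 and Ctnna2 by 0.79. The teneurin genes Tenm4 and Tenm3 fell by 0.44 ± 0.13 (edgeR adjusted p = 0.0451) and 0.41 ± 0.10 (edgeR adjusted p = 0.0183), and the cadherin gene Cdh13 by 0.36 ± 0.10 (edgeR adjusted p = 0.0443). Zinc finger genes had 0 called higher and 3 lower of 120 tested, Zfp936, Zfp982 and Zfp445 (log2 -1.63 ± 0.43, edgeR adjusted p = 0.0358). Zfp445 kept its call in 6 of 15 other settings and lost it without either day 0 library, either day 2 library or day 8 replicate 2. In edgeR's test, 0 of 6 olfactory, 11 vomeronasal, 3 Hox, 6 naive pluripotency and 11 methylation genes were called. At an unadjusted p under 0.05 were 1 olfactory and 1 pluripotency gene and 0 of the others, and DESeq2 gave none of these genes an adjusted p. No ribosomal protein gene had enough positions to be tested.

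The other positions of the same genes and libraries moved in the same direction for most named genes. Among 15985 genes tested on those positions, 430 (2.69%) were called on day 8. At the other positions Dlg2 changed by 0.61 ± 0.17 and Csmd3 by 1.92 ± 0.36, and the log2 value of Kcnh7 was 0.86 ± 0.36 (edgeR adjusted p = 0.226). Zfp982 fell by 1.60 ± 0.20 and Sfi1 by 1.97 ± 0.15. Ulk2 and G3bp2 had 0.06 ± 0.60 and 0.03 ± 0.34 there. In an edgeR test of the difference between both kinds of position, with each library as a block, 1 of 10446 genes (0.00957%) passed, and 675 were at an unadjusted p under 0.05. That gene was Ralyl. The difference was not called for Ulk2 (edgeR adjusted p = 0.669), G3bp2 (0.498), Kcnh7 (0.680) or Dlg2 (0.629), and was -0.49 for Csmd3 (edgeR adjusted p = 0.929).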

How the data were processed

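DNA label libraries were made by TOP-seq on an Ion Proton from 900 ng of DNA, per the labels' protocols. The submitters' processing notes name cutadapt 4.4, BWA 0.7.17-r1188, SAMtools 1.12 and mm10. The deposited value, per the file headers, is a read count (coverage) for each listed position, with no normalization. Mapping parameters, strand handling and filters on duplicates were not given in the sources used here. Expression markers cannot be checked in such files. Reads carry no molecular identifiers, so they can be PCR copies.

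Members and gene lists were chosen with earlier results of these data known. Autosomes alone entered. Gene bodies and promoter sequences came from RefSeq GRCm38.p6, whose coordinates are those of mm10; overlapping genes each received a position. Analyses ran in Python 3.11.15 with scipy 1.17.1, pandas 2.3.3 and numpy 2.4.6. Exact permutation p-values were adjusted (Benjamini-Hochberg) within families of 4. Positions per gene were fitted with edgeR 4.0.16 in R 4.3.3 (filterByExpr, TMM, glmQLFit, glmQLFTest) over the 8 day libraries, with DESeq2 1.42.0 as an alternative; the edgeR fit and the permutation tests were tested on simulated data. TMM factors were 0.988 to 1.03 and the common biological coefficient of variation was 0.00988.

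Named genes were the 6 largest called changes each way on day 8 at or above the median abundance without overlap between libraries, the 8 with the most members, the 8 highest and 8 lowest member shares, and the extremes and called genes of each list. Alternatives covered the distance (50 and 200 bases), at least 2 reads, thinning, scaling, filtering, reads, the tool and each library left out.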

Additional observations from a re-analysis of the deposited data

Results flagged for a closer look

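The gene Ralyl, which encodes an RNA-binding protein, was singled out because its change differed between isolated and other positions of the same libraries (chr3:13471655-14182287). Its isolated positions numbered 12 and 13 on day 0, 90 and 118 on day 2, and 249 and 243 on day 8, a log2 change of 1.42 ± 0.25 on day 8 (edgeR adjusted p = 4.67e-05). Its other positions numbered 16 and 21 on day 0 and 115 and 97 on day 8, with a log2 value of -0.32 ± 0.25 (edgeR adjusted p = 0.575). The difference was 1.80 (edgeR adjusted p = 0.0350), added after the data were seen. It was not called without day 0 replicate 1, day 0 replicate 2 or day 8 replicate 2.

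The X chromosome entered no comparison, and it holds the signal too. Of 278683 X positions listed in the 11 knock-in libraries, 145132 (52.1%) had no other within 100 bases, above every autosome. Fewer positions were listed on the X than on any autosome, the lowest being chromosome 19 with 325043. The rule raises the share where listing is sparse, and the share was not adjusted for that. The knock-in library with the fewest X positions listed 6827, and the wild-type library with the most listed 123.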

How the results depend on the processing

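With distances of 50 and 200 bases the members were 45.2% and 11.8% of the pool, with at least 2 reads 28.6%, and without any 1 library 26.6% to 28.5%. The coding and gene end differences within libraries kept their direction and call in all settings run. The recurrence difference kept its direction in all of them, but its test counts dependent libraries as independent. The within-library coverage ratio was not called at 50 bases (-0.0035), had a value of -0.0152 under the full rule, and lay between -0.021 and -0.0134 with 1 library left out. For the trend in the isolated share, r was 0.82 at 200 bases, 0.71 with at least 2 reads, 0.74 thinned, 0.58 without day 0 and 0.91 without day 8, and 0.69 to 0.93 without 1 library, with adjusted p above 0.05 in each of the first 5; without day 8 the p was the smallest possible there. The coverage ratio trend had r of -0.55, -0.64, -0.75, -0.72 and -0.82 in the same settings and -0.91 to -0.73 without 1 library. The trend in reads passed without day 8 replicate 1, and had r of 0.47 to 0.91 without 1 library. Under the full rule the libraries compared also chose the members, so its values are descriptions, not tests; r was 0.76 there. The coding share trend, called in no setting, turned to -0.10 at 200 bases and -0.27 under the full rule. The cause of these shifts was not tested.

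Day 8, day 4 and day 2 calls were 277, 243 and 56 at 50 bases, 70, 42 and 13 at 200 bases, and 54, 63 and 47 with reads. Under the full rule, again as a description, 86, 51 and 19 genes were past the threshold. With only the 4 libraries compared, 47 and 23 were called on days 8 and 4. Day 2 had 19 without TMM and 59 without the filter. Without 1 library the counts were 33 to 197, 17 to 128 and 4 to 57, and 0 to 5 for the difference between kinds of position. DESeq2 called 105 genes on day 8; of the 147 it called 87 and gave the other 60 no adjusted p. Dlg2, Csmd3, Kcnh7, Lsamp, Cntnap2 and Nrxn3 were past the threshold in all 17 alternatives, of which the full rule is a description and not a test. Fhit, never called, was 0.072 without the filter and -0.16 to 0.13 without 1 library, against -0.14.

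Same-numbered libraries did not deviate together (correlations from -0.0168 to 0.0282 over 6 pairs of days), so the numbers were not taken as pairs. With a replicate block, 140, 100 and 27 genes were called, and both trends had an adjusted p of 0.0694 (r = 0.80 and -0.83, exact permutation). Depth limits day 0 most, with 383292 and 399896 positions.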
